A study of Mus musculus with 12 samples.

Results

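Stress-susceptible (SS) mice that had been restrained repeatedly and had no running wheel were compared with unstressed controls (C) in the ventral hippocampus, the pole of the hippocampus tied to emotional behaviour. The comparison rests on 6 of the 12 libraries of the series, 3 per group, chosen by their labels. All 6 came from male wild-type C57BL/6J mice, an inbred strain, that were naive and 8 weeks old at the outset. C mice 2, 8 and 12 carried the label of no treatment. SS mice 18, 19 and 21 had spent 2 hours daily in ventilated tubes on 14 days and were labelled stress-susceptible. The protocol goes on to a 4-week period in cages with or without a wheel. Whether the SS mice spent it sedentary before the tissue was taken, and how susceptibility was scored, is not given in the sources used here. The SS mice were sorted as susceptible while the controls were not sorted, so the restraint and a trait of susceptible mice cannot be told apart. The other 6 libraries, from susceptible mice given a wheel, served here only to estimate the spread between mice.

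Each library held estimated read counts of total RNA, summed here per gene symbol, with 10201269 to 14041951 counts per library in these 2 groups. Levels are given in CPM, the counts of a gene relative to the scaled total of its library. Values in threes follow the order C mice 2, 8 and 12 or SS mice 18, 19 and 21. A difference is the log2 fold change of SS over C with its standard error (SE), and it was called where the adjusted p of edgeR's quasi-likelihood test over 14541 genes was under 0.05. Within each group the mice have different numbers, so the p-values measure the spread between animals, 3 per group. Number 12 labels a C library and one of the wheel libraries, and number 19 an SS library and another wheel library. Whether these are the same animals is not given in the sources used here, and the fit took all 12 libraries as separate. In bulk tissue, fewer cells of a type and less RNA per cell cannot be told apart.

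The libraries of each group were not alike in the tissue and RNA they held. The 20 markers of choroid plexus and ependyma, which line the ventricle beside the hippocampus, summed to 3858, 29 and 65.5 CPM in the controls and to 5608, 35.9 and 43.7 CPM in the SS mice, so that 1 library of each group carried this RNA. The 20 markers of oligodendrocytes and myelin summed to 10109, 6825 and 11084 CPM in C against 13593, 4263 and 4102 CPM in SS. Noncoding RNAs retained in the nucleus (9 members, Malat1 among them) summed to 1753, 1343 and 1552 CPM in C and to 1301, 10454 and 12096 CPM in SS. SS mice 19 and 21 were thus low in myelin RNA and high in nuclear RNA, and SS mouse 18 was the reverse. Thalamic neuron markers (15 members) lay between 412 and 734 CPM in C and between 376 and 657 CPM in SS, highest in C mouse 2 and SS mouse 18. No member of these 4 lists was at 0 in all 6 libraries. Markers of CA1 and subiculum, of CA2 and CA3 and of the dentate gyrus were present in every library, which matches the labelled tissue.

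**Figure D1:**
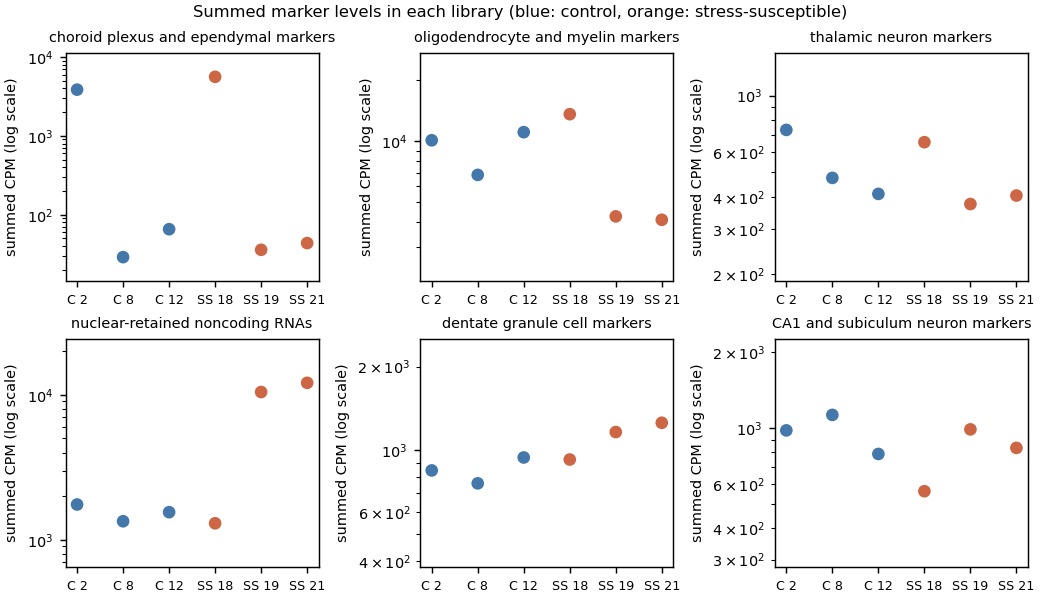
Summed CPM of 6 marker lists (vertical axes, log scale) in each of the 6 libraries, with controls in blue and SS mice in orange. Choroid plexus RNA was high in C mouse 2 and SS mouse 18, and nuclear RNA was high in SS mice 19 and 21 alone.

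Chronic stress reaches the hippocampus mainly through glucocorticoids. These steroids bind the mineralocorticoid and glucocorticoid receptors, which enter the nucleus and switch target genes on or off. The ventral pole projects to the amygdala, hypothalamus and prefrontal cortex, and its output is set by the balance of glutamate receptors, which excite, and GABA receptors, which inhibit. That signalling is costly, and the ATP it uses comes largely from the mitochondrial respiratory chain.

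Between SS and C mice, 1430 of 14541 genes were called (9.83%), 757 higher (5.21%) and 673 lower (4.63%) in SS. Genes whose 2 groups did not overlap numbered 3908 (26.9%), of which 1845 (12.7%) were higher and 2063 (14.2%) lower. Of the called genes, 1275 had groups that did not overlap, on the side of the call. The genes named below for the smallest p were picked from these, so for them that separation was set by the choice. Most called differences were small, with a median size of 0.53 on the log2 scale. A difference above 1 was found in 195 of the higher genes and one below −1 in 25 of the lower genes. SS mouse 18 lay outside the control range on the same side as the call for 1278 of the called genes, within that range for 127 and on the opposite side for 25. This animal was itself in the contrast that made the calls, so the count is partly set by how the genes were chosen and is no independent support. Without SS mouse 18, 3797 genes were called, and 1409 of the 1430 were among them.

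The calls depended on single libraries. Without C mouse 2 the number was 848, and without C mouse 12 it was 78. By edgeR it was 0 without C mouse 8, SS mouse 19 or SS mouse 21, where 3205, 2796 and 2984 genes had an unadjusted p under 0.05, and 0 in a fit of the C and SS libraries alone, where 3339 had one. It was also 0 when the Malat1 level was a covariate (1541 genes at an unadjusted p under 0.05) and once GC content and transcript length were corrected for (2589). Every gene given below as called lost its call in those 6 settings. On all 12 libraries limma-voom called 1209 genes and DESeq2 2219. Of the 106 genes named below as called, 25 kept the call without C mouse 12, namely Akap13, Ascc2, Cacnb4, Cbln1, Cbln4, Cc2d1a, Cox7b, Cycs, Fgf12, Glrb, Grin1os, H2afz, Hif3a, Hmgcs1, Hspa2, Icam5, Mat2b, Msmo1, Pvalb, Sec11c, Sema3c, Slit1, Tyk2, Unc13c and Vsnl1. Without C mouse 2 the call was lost by 29, namely Acta2, C1ql2, Cbln1, Cbln4, Col6a1, Cry2, Cyp51, Ddit4, Eif4g1, Gpr34, Grik2, Grik5, Grin2d, H3f3a, Ifit1, Itm2a, Kmt2b, Meg3, Myl9, Opalin, P2ry13, Pou3f1, Rfx3, Trh, Trio, Unc13a, Unc13c, Usp18 and Zbtb16. Without SS mouse 18 it was lost by Cyp51, Ddit4 and Myl9. Of these genes limma-voom did not call Cbln1, Cbln4, Col4a2, Col6a1, Ddit4, Grik2, Meg3, Miat, P2ry13, Trh, Unc13a and Usp18. With no low-count filter Cry2, Eif4g1, Grik5 and Usp18 were not called, with the stricter filter Cyp51 was not, and with DESeq2 size factors Ddit4 was not. Usp18 was not tested with the stricter filter and had no adjusted p by the DESeq2 Wald test. Lists of genes are described by their counts and medians, beside a median of 0.02 over all genes tested, and for no list was a test of the list made. Of all genes tested 5.21% were called higher and 4.63% lower, which holds as the comparison also where it is not repeated. The lists were chosen with earlier results of these data known, so a share above that of all genes may be partly set by that choice.

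Long and GC-rich transcripts were more often called higher, and short and AT-rich ones lower. The called higher genes had a median transcript length of 4418 bases and a median GC content of 55.0%, against 1967 bases and 44.2% for the called lower genes and 2990 bases and 50.5% for all genes tested. In the decile of genes with the shortest transcripts, 0.209% were called higher and 14.3% lower, and in the decile with the longest, 14.1% and 1.6%. In the decile with the lowest GC content, 1.11% were called higher and 13.8% lower, and in the decile with the highest, 12.0% and 0.765%. Many of the pathways below are made of short or of long genes, so values after a correction for both are given beside the main lists and for the named genes that it moved most.

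**Figure D2:**
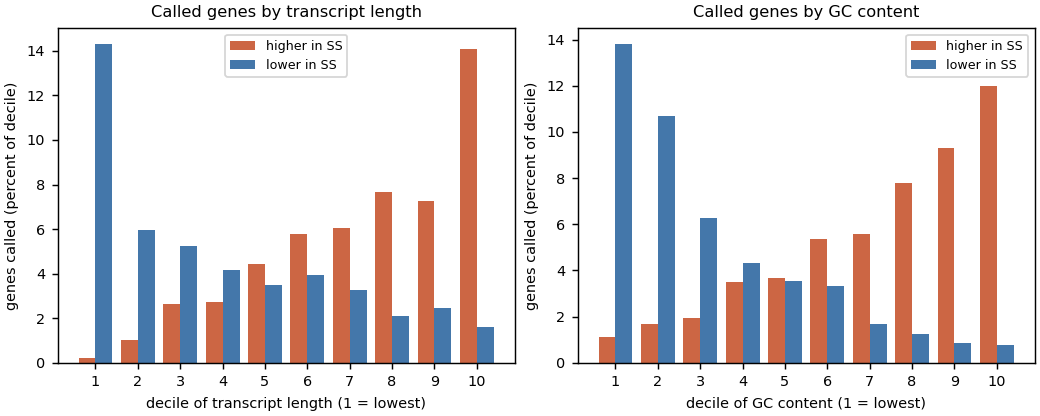
Share of genes called higher (orange) and lower (blue) in SS in each decile of genes by transcript length (left) and by GC content (right), both in percent of the genes of that decile. The share called higher was 14.1% in the longest decile and 0.209% in the shortest.

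Of 25 tested genes known to be induced by glucocorticoids, 5 rose in SS and 0 fell, which is 20.0% called higher against 5.21% of all genes. The median of the list was 0.33, and 21 of its 25 members had a positive difference. Hif3a, an inhibitory subunit of the hypoxia-inducible factor family (chromosome 7, 17030993 to 17062427), stood at 5.89, 4.21 and 7.64 CPM in C and 17.9, 13.9 and 15.5 CPM in SS. Every SS mouse was above every control, as the choice of the genes with the smallest p required. The difference was 1.42 ± 0.21 (SE, edgeR adjusted p = 0.0223). Zbtb16, a zinc finger transcription factor, stood at 43.3, 48.1 and 52.8 CPM against 77.2, 61.6 and 64.7 CPM (0.49 ± 0.12, adjusted p = 0.0285). Ddit4, an inhibitor of the growth kinase mTOR, stood at 58.3, 49 and 74.9 CPM against 114, 81.1 and 82 CPM (0.60 ± 0.18, adjusted p = 0.0488). For both genes SS mouse 18 was the highest of the 6 animals. Mertk, a receptor for engulfing dying cells and synapses, stood at 32.9, 28.7 and 29 CPM against 42, 49.2 and 39.4 CPM (0.53 ± 0.12, adjusted p = 0.0244). Per1, a clock gene that glucocorticoids also induce, stood at 41.2, 51 and 56.7 CPM against 62.7, 93.8 and 99.9 CPM (0.78 ± 0.17, adjusted p = 0.0233).

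Fkbp5 and Sgk1, which are among the best known targets of the receptor, were not called. Fkbp5, a chaperone that lowers the receptor's affinity for hormone, stood at 68.5, 61.3 and 96.9 CPM in C and 143, 78.3 and 85.2 CPM in SS (0.43 ± 0.22, adjusted p = 0.216). Sgk1, a kinase that acts on ion transport, stood at 91.8, 72.2 and 159 CPM and 227, 107 and 97.3 CPM (0.42 ± 0.31, adjusted p = 0.41). In both, SS mouse 18 was the highest animal and SS mice 19 and 21 lay within the control range. The list median was 0.63 for SS mouse 18 alone, set against the controls with no other SS animal in the fit, and 0.16 without it, where 5 members rose and 2 fell. After the GC content and length correction the median was 0.31, with 0.49 for Per1 and 0.29 for Zbtb16. A glucocorticoid response element, searched as GNACA and TGTNC with 3 bases between them, occurred on either strand in the promoters of 4 of 23 list members with a RefSeq promoter, Sgk1 among them, and none of the 4 was called. It occurred in 0.475% of all 32851 promoters of that table, each reaching 250 bases before and 50 bases after a start site. The share was 0.436% of tested genes with a promoter, 0.162% of those called higher and 0.191% of those called lower.

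Among 14 receptors and regulators of the axis, 2 fell (14.3%, against 4.63% of all genes) and 0 rose, with a median of −0.07. The list was split, as groups did not overlap with SS higher in 4 members and with SS lower in 4. That is 57.1% of members, against 26.9% of all genes. Hsp90aa1, the chaperone that holds the unbound receptor ready for hormone, stood at 1818, 2015 and 1897 CPM in C and 1496, 1116 and 1285 CPM in SS (−0.56 ± 0.11, adjusted p = 0.0223). Hsd11b1, the enzyme that regenerates active glucocorticoid inside cells, stood at 41.1, 42.8 and 43 CPM and 35.3, 28.9 and 26.1 CPM (−0.49 ± 0.12, adjusted p = 0.0292). Both were lowest in SS mice 19 and 21. After the correction Hsp90aa1 was at −0.41 and Hsd11b1 at −0.29. Nr3c1, the glucocorticoid receptor, stood at 109.7, 130.2 and 94.4 CPM in C and 81.4, 88 and 80.5 CPM in SS, with groups that did not overlap but a difference that did not pass (−0.42 ± 0.14, adjusted p = 0.0674). Nr3c2, the mineralocorticoid receptor, had a difference of 0.11 ± 0.17 (adjusted p = 0.72), and Crhr1, the receptor for corticotropin-releasing hormone, of −0.04 ± 0.26 (adjusted p = 0.941).

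The nuclear genes of the respiratory chain that were called were all lower in SS. Of complex I, which takes electrons from NADH, 16 of 37 tested members fell and the median was −0.34. Of complex II, 1 of 4 fell (median −0.26). Of complex III with cytochrome c, 6 of 10 fell (median −0.36), of complex IV, which passes the electrons to oxygen, 7 of 11 fell (median −0.40), and of the ATP synthase 7 of 15 fell (median −0.35). These shares compare with 4.63% of all genes called lower. Ndufs4, an accessory subunit of complex I, stood at 105, 111 and 112 CPM in C and 84.3, 67.4 and 70.8 CPM in SS (−0.56 ± 0.10, adjusted p = 0.0223). Ndufa5, of the arm of complex I in the matrix, stood at 119.6, 124 and 139.7 CPM and 89.3, 81.6 and 89.3 CPM (−0.56 ± 0.12, adjusted p = 0.0239). Cycs, the electron carrier cytochrome c, stood at 256, 289 and 285 CPM and 208, 157 and 179 CPM (−0.61 ± 0.10, adjusted p = 0.0223). Cox7b, a small subunit of complex IV (chromosome X, 106015700 to 106022450), stood at 248, 265 and 269.5 CPM and 189, 149 and 174 CPM (−0.61 ± 0.10, adjusted p = 0.0223), and Atp5h, of the stalk of the ATP synthase, at 318, 347 and 352 CPM and 262, 226 and 250.2 CPM (−0.46 ± 0.10, adjusted p = 0.0229). In each of these 5 genes all SS mice were below all controls, which the choice of the genes with the smallest p required for Cycs and Cox7b. Sdhb, the iron-sulfur subunit of complex II, was the member of that complex that fell (−0.39 ± 0.10, adjusted p = 0.0349).

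The size of these differences varied with the library and with the correction. For SS mouse 18 alone the medians of complexes I, III and IV and of the ATP synthase were −0.18, −0.28, −0.33 and −0.22. Without that mouse they were −0.45, −0.44, −0.52 and −0.44, with 28, 8, 10 and 11 members called lower. After the GC content and length correction they were −0.12, −0.13, −0.10 and −0.15. The corrected differences were −0.25 for Ndufs4, −0.26 for Ndufa5, −0.39 for Cycs, −0.12 for Cox7b and −0.10 for Atp5h. The median transcript length was 751 bases for complex I and 645 bases for complex IV, against 2990 bases for all genes tested. Glycolytic enzymes, which make ATP outside mitochondria, had 0 of 17 called and a median of 0.04. Their lowest member, the ATP-making kinase Pgk1, stood at 525, 528 and 527 CPM and 498, 383 and 352 CPM and did not pass (−0.36 ± 0.12, adjusted p = 0.0711). Of 22 genes of the oxidative stress response 3 fell (13.6%, against 4.63% of all genes). They were the peroxide-removing enzymes Prdx1 (−0.56 ± 0.13, adjusted p = 0.0248) and Prdx3 (−0.49 ± 0.10, adjusted p = 0.0239) and the thioredoxin Txn1 (−0.48 ± 0.10, adjusted p = 0.0223). The median of that list was −0.23, and it was 0.03 for SS mouse 18 alone. Corrected, the list was at −0.15, Prdx1 at −0.30, Prdx3 at −0.23 and Txn1 at −0.17. Of 75 mitochondrial ribosomal proteins, which translate the mitochondrial genome, 12 fell (16.0%, median −0.24), among them Mrps18c (−0.54 ± 0.12, adjusted p = 0.0244). The correction left that list at a median of −0.10 and Mrps18c at −0.09.

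Promoter stretches of called members are shown because genes of these complexes are known to share binding sequences for a small set of transcription factors. All are from the RefSeq promoters of build GRCm38.p6, written 5′ to 3′ on the gene's strand, with matches in capitals and distances counted back from the start site of that table. The first match is that of nuclear respiratory factor NRF1, GCGCA and GCGC with 1 base between them. It starts 190 bases before the start of Ndufa5 (chr6:24527677-24527756, minus strand) and 141 bases before that of Atp5h (chr11:115420021-115420100, minus strand). The second, TGACGTCA, is the cyclic AMP response element, 169 bases before the start of Cycs (chr6:50566699-50566778, minus strand). The third, CCGGAAG, is the core bound by ETS factors, 73 bases before the start of Rps25 (chr9:44407601-44407680, plus strand) and 100 bases before that of Psmc6 (chr14:45329684-45329763, plus strand), a ribosomal and a proteasomal gene described next.
Ndufa5: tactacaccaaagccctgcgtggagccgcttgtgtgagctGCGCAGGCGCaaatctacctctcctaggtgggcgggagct
Atp5h: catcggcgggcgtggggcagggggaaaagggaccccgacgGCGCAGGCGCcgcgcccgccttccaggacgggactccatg
Cycs: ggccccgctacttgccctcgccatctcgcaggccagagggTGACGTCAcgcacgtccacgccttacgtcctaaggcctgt
Rps25: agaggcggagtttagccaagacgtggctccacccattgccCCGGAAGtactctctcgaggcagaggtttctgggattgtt
Psmc6: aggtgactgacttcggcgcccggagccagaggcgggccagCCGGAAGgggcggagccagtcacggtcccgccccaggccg

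On either strand, NRF1 letters occurred in 7 of 33 promoters of complex I, 2 of 3 of complex II, 1 of 6 of complex III, 1 of 9 of complex IV and 6 of 14 of the ATP synthase, against 4.6% of all promoters of the table and 10.7% of 11462 tested genes with a promoter. They were found in 15.1% of the genes called lower and in 10.7% of those called higher. ETS letters occurred in 9 of 23 small and 14 of 34 large ribosomal subunit genes, 24 of 66 mitochondrial ribosomal genes and 10 of 25 proteasome genes, and in 4 of 33 of complex I, 2 of 3 of complex II, 2 of 6 of complex III, 3 of 9 of complex IV and 5 of 14 of the ATP synthase. Over all promoters the share was 8.86%, over tested genes 18.1%, over genes called lower 27.7% and over genes called higher 18.3%. The cyclic AMP response element occurred in 1.79% of all promoters, 3.51% of tested genes, 4.02% of genes called lower and 2.44% of genes called higher. These are matches of letters and describe no binding.

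Of the cytosolic ribosomal proteins of the small subunit 24 of 31 fell (77.4%, median −0.44) and of the large subunit 29 of 47 (61.7%, median −0.41), with 0 higher in either. Rps24 stood at 662, 853 and 795 CPM in C and 530.3, 450.4 and 519 CPM in SS (−0.62 ± 0.11, adjusted p = 0.0223). Rps25, whose promoter is shown above, stood at 389, 444 and 450.0 CPM and 329, 256 and 296 CPM (−0.54 ± 0.11, adjusted p = 0.0223). Rpl35a, of the large subunit, stood at 339, 407 and 406 CPM and 269, 238 and 272 CPM (−0.56 ± 0.10, adjusted p = 0.0223). All SS mice were below all controls in the 3 genes, with SS mouse 19 lowest. The subunit medians were −0.31 and −0.27 for SS mouse 18 alone, −0.53 and −0.49 without it, and −0.19 and −0.14 after the GC content and length correction, where Rps24 was at −0.14, Rps25 at −0.40 and Rpl35a at −0.12. Many ribosomal protein genes have close pseudogene copies, and how their reads were shared out is uncertain.

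Of 34 initiation and elongation factors of translation 8 fell (23.5%, against 4.63% of all genes) and 1 rose (2.94%, against 5.21%), with a median of −0.22. Eif3e, of the complex that places the small subunit on messenger RNA, stood at 202, 196 and 199.7 CPM in C and 148, 123 and 128 CPM in SS (−0.58 ± 0.10, adjusted p = 0.0223). Eif4e, which binds the cap of messenger RNA, had a difference of −0.42 ± 0.08 (adjusted p = 0.0223), and the initiator-tRNA factor Eif2s2 of −0.53 ± 0.11 (adjusted p = 0.0223). Eif4g1, the long scaffold that joins the cap to the ribosome, rose from 223, 212 and 224 CPM to 258, 273 and 256 CPM (0.26 ± 0.07, adjusted p = 0.0407). After the correction the list median was −0.13, and the differences were −0.19 for Eif3e, −0.27 for Eif4e, −0.30 for Eif2s2 and 0.02 for Eif4g1. Eif4g1 also lost its call with no low-count filter (adjusted p = 0.0806). Cytosolic tRNA synthetases, which load amino acids, had 1 higher and 1 lower of 20 (median 0.03).

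Of 31 proteasome subunits, which break down tagged proteins, 9 fell (29.0%, against 4.63% of all genes) and 0 rose (median −0.25). Psmc6, an ATPase of the cap that unfolds substrates, stood at 99.5, 112 and 109 CPM in C and 85.2, 58.6 and 67.2 CPM in SS (−0.60 ± 0.12, adjusted p = 0.0223). The core subunits Psma6 (−0.46 ± 0.10, adjusted p = 0.0243) and Psmb1 (−0.41 ± 0.09, adjusted p = 0.0259) also fell. The proteasome median was −0.09 for SS mouse 18 alone, −0.34 without it and −0.09 after the correction, which put Psmc6 at −0.26, Psma6 at −0.14 and Psmb1 at −0.16. Of 27 chaperones 7 fell (25.9%) and 1 rose (3.7%), with a median of −0.20 and, corrected, of −0.15. Cct8, of the ring that folds actin and tubulin, stood at 243, 243 and 245 CPM and 195, 176 and 180.2 CPM (−0.41 ± 0.08, adjusted p = 0.0223). Hspe1, a mitochondrial cochaperone, had a difference of −0.43 ± 0.09 (adjusted p = 0.0239). Hspa2, a member of the Hsp70 family, rose from 63.8, 53.2 and 70.8 CPM to 91.2, 101 and 95.8 CPM (0.62 ± 0.12, adjusted p = 0.0223), with every SS mouse above every control. Corrected, Cct8 was at −0.19, Hspe1 at −0.14 and Hspa2 at 0.53. The unfolded protein and integrated stress response had 2 of 18 lower (11.1%, against 4.63% of all genes) and a median of −0.02.

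Sterol synthesis, from which neurons and glia make their cholesterol, had 4 of 22 genes lower (18.2%, against 4.63% of all genes) and 0 higher (median −0.11). Hmgcs1, an enzyme at the start of the pathway, stood at 283, 358 and 294 CPM in C and 213, 206 and 211 CPM in SS (−0.57 ± 0.10, adjusted p = 0.0223). Msmo1, which removes methyl groups from the sterol ring, stood at 98.8, 121 and 95.8 CPM and 58, 67.8 and 76.7 CPM (−0.64 ± 0.12, adjusted p = 0.0223). Idi1, an isomerase early in the pathway (−0.73 ± 0.18, adjusted p = 0.0295), and Cyp51, a demethylase of lanosterol (−0.46 ± 0.13, adjusted p = 0.0479), were the others. In all 4 the groups did not overlap. Over the list they did not overlap with SS lower in 5 members and with SS higher in 2. That is 31.8% of members, against 26.9% of all genes. After the GC content and length correction the differences were −0.41 for Hmgcs1, −0.44 for Msmo1, −0.52 for Idi1 and −0.42 for Cyp51. Cyp51 was no longer called without SS mouse 18 (−0.33, adjusted p = 0.0545). The list median was −0.31 for SS mouse 18 alone and −0.09 without it.

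Of 23 genes of GABA and glycine receptors and GABA synthesis, 4 fell (17.4%, against 4.63% of all genes) and 0 rose, and the median was −0.14. Without SS mouse 18, 5 fell and 2 rose with a median of −0.07, and after the correction the median was −0.08. Gabrb2, a subunit of GABA-A receptors (chromosome 11, 42419515 to 42632591, mm10), stood at 340.2, 335 and 316 CPM in C and 244, 238 and 256 CPM in SS (−0.42 ± 0.08, adjusted p = 0.0223). Glrb, the glycine receptor subunit that binds the scaffold gephyrin (chromosome 3, 80843598 to 80913660), stood at 244, 234 and 226 CPM and 175, 154 and 163 CPM (−0.52 ± 0.08, adjusted p = 0.0223). In both genes every SS mouse was below every control, which the choice of the genes with the smallest p required for Glrb. SS mouse 19 was the lowest animal in both.

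Both differences had the same sign in SS mouse 18 alone and in the other SS mice. For SS mouse 18 alone they were −0.44 for Gabrb2 and −0.43 for Glrb, and without that mouse −0.43 and −0.58. After the GC content and length correction they were −0.31 for Gabrb2 and −0.29 for Glrb. With the Malat1 level as a covariate they were −0.40 and −0.41, and neither was called. Malat1 was high in SS mice 19 and 21 alone, so that fit leans on SS mouse 18. Its values are close to those for that mouse alone and are no separate check of them. Other named genes differed in how far the Malat1 covariate moved them. Grik2 went from 0.64 to 0.02, Unc13a from 0.54 to 0.03 and Kmt2b from 0.96 to 0.17. Of the respiratory genes, Ndufa5 went from −0.56 to −0.52, Ndufs4 from −0.56 to −0.36 and Cycs from −0.61 to −0.39. The median of complex I went from −0.34 to −0.19 and that of complex IV from −0.40 to −0.32. Gabbr2, of the metabotropic GABA-B receptor, had a positive difference that did not pass (0.33 ± 0.12, adjusted p = 0.0856).

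**Figure D3:**
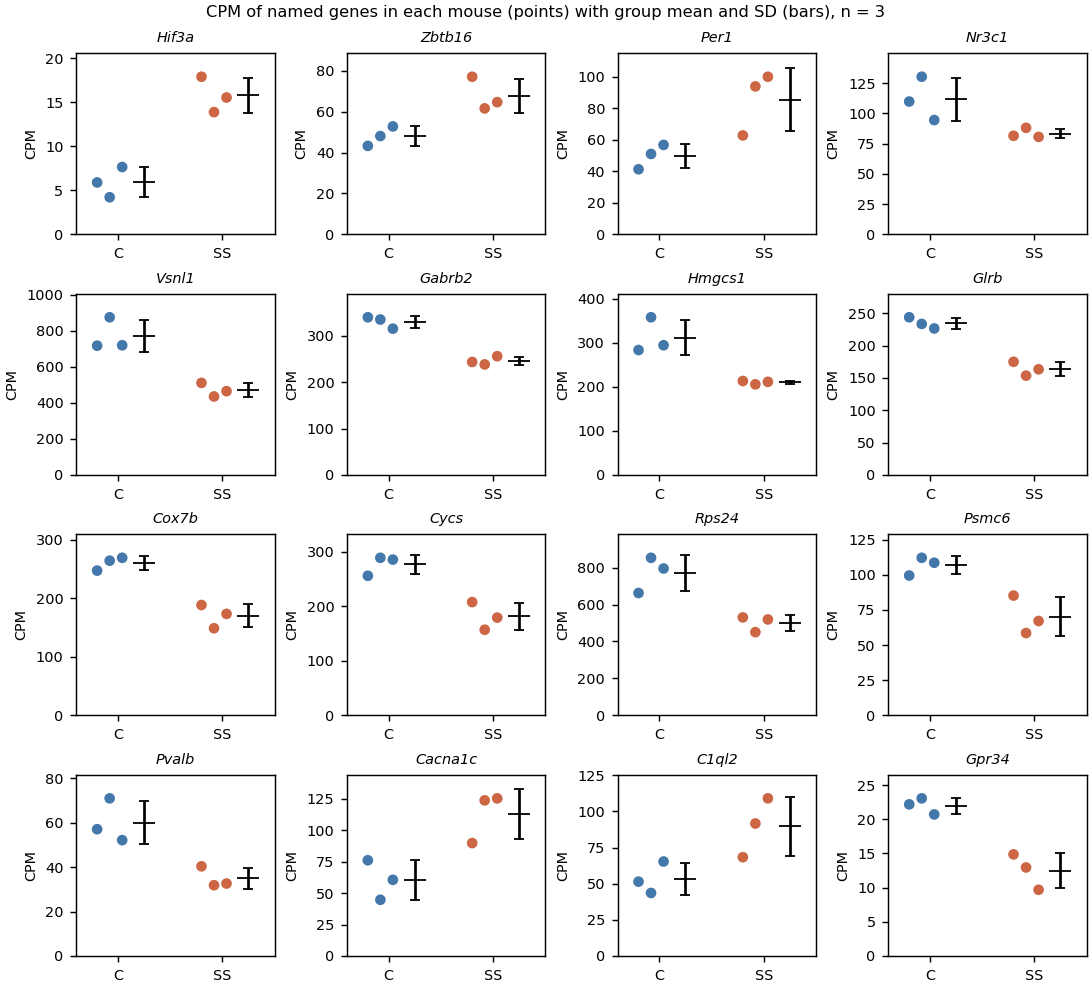
CPM of 16 named genes in each mouse (points, blue for C and orange for SS), with the group mean and SD (bars, n = 3), on axes that start at 0. In Gabrb2, Glrb, Vsnl1 and Hmgcs1 all 3 SS mice lie below all 3 controls. Hif3a, Vsnl1, Glrb, Cox7b, Cycs and Pvalb were picked among called genes whose groups did not overlap.

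Of 22 glutamate receptor genes 5 rose (22.7%, against 5.21% of all genes) and 0 fell, and the median was 0.22. The transcripts are long, with a median of 4973 bases, and after the correction the list median was 0.09. Grin1, the subunit that every NMDA receptor needs, stood at 246, 179 and 213 CPM in C and 258, 337 and 320.1 CPM in SS (0.52 ± 0.13, adjusted p = 0.0285). Its antisense neighbour Grin1os was also called (1.28 ± 0.22, adjusted p = 0.0223), and because the strand setting of the counting is not given in the sources used here, reads of the pair cannot be told apart. The NMDA receptor subunits Grin2c (0.47 ± 0.12, adjusted p = 0.0289) and Grin2d (0.69 ± 0.19, adjusted p = 0.0365) and the kainate receptor subunit Grik5 (0.34 ± 0.10, adjusted p = 0.0427) rose as well. Grik2, another kainate receptor subunit, was called at 49, 41.6 and 40.2 CPM against 43.8, 77.5 and 81.5 CPM (0.64 ± 0.18, adjusted p = 0.0453), with SS mouse 18 inside the control range. Grin2d, Grik5 and Grik2 were no longer called without C mouse 2. Corrected differences were 0.25 for Grin1, 0.16 for Grin2c, 0.34 for Grin2d, 0.07 for Grik5 and 0.65 for Grik2. The list median was −0.29 for SS mouse 18 alone and 0.34 without it, so its sign differed within the group.

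Of 29 genes of vesicle release 1 rose, the priming factor Unc13a, at 201, 179 and 191 CPM against 196, 314 and 318 CPM (0.54 ± 0.14, adjusted p = 0.0367), where SS mouse 18 lay within the control range. The fusion protein Snap25 stood at 2709, 2902 and 2998 CPM and 2614, 2045 and 2047 CPM and did not pass (−0.36 ± 0.12, adjusted p = 0.0624), though it did without SS mouse 18 (−0.50, adjusted p = 0.00301). Without that mouse 4 members of the list rose and 4 fell. Of 27 genes of the postsynaptic density 2 rose (7.41%, against 5.21% of all genes). Among them was Trio, an activator of small GTPases in spines (0.52 ± 0.12, adjusted p = 0.0246). Unc13a and Trio were no longer called without C mouse 2. After the correction Unc13a was at 0.09 and Trio at 0.08, and the medians of the release and scaffold lists went from 0.05 to −0.10 and from 0.14 to −0.04. Dlg4, the scaffold PSD-95, had a difference of 0.23 ± 0.09 that did not pass (adjusted p = 0.104).

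Of the genes called, all calcium sensors fell, and all but 1 of the voltage-gated channel genes rose. Of 19 calcium sensors 3 fell (15.8%, against 4.63% of all genes). Their median was −0.19, with −0.12 after the correction, and 7 members fell without SS mouse 18. Vsnl1, a sensor that moves to membranes on calcium binding, stood at 718, 876 and 719.9 CPM in C and 511, 436 and 465 CPM in SS (−0.71 ± 0.11, adjusted p = 0.0223). Pvalb, the calcium buffer of fast-spiking interneurons, stood at 57, 70.9 and 52.1 CPM and 40.4, 31.8 and 32.6 CPM (−0.78 ± 0.13, adjusted p = 0.0223), and the calmodulin gene Calm2 had a difference of −0.53 ± 0.11 (adjusted p = 0.0223). Corrected, Vsnl1 was at −0.44, Pvalb at −0.52 and Calm2 at −0.12. Of 27 voltage-gated sodium, calcium and HCN channel genes 4 rose (14.8%, against 5.21%) and 1 fell (3.7%, against 4.63%), with a median of 0.23. Cacna1c, the pore of an L-type calcium channel, stood at 76.1, 44.7 and 60.6 CPM and 89.8, 124 and 125 CPM (0.91 ± 0.17, adjusted p = 0.0223). The T-type pore Cacna1h (1.05 ± 0.20, adjusted p = 0.0223) and the presynaptic pores Cacna1a (0.52 ± 0.13, adjusted p = 0.0296) and Cacna1b (0.70 ± 0.16, adjusted p = 0.0262) rose, the last with SS mouse 18 inside the control range. Cacnb4, an auxiliary calcium channel subunit, fell from 209, 284 and 181 CPM to 141, 146 and 154 CPM (−0.61 ± 0.15, adjusted p = 0.0289). The median length of these transcripts was 7194 bases, and the list median was 0.06 after the correction and 0.02 for SS mouse 18 alone. The corrected differences were 0.57 for Cacna1c, 0.58 for Cacna1h, 0.10 for Cacna1a, 0.36 for Cacna1b and −0.55 for Cacnb4. Of 36 potassium channel genes 2 rose (5.56%, near the 5.21% of all genes) and 0 fell, with a median of 0.14 that was −0.02 after the correction.

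Of 16 markers of dentate granule cells 4 rose (25.0%, against 5.21% of all genes) and 0 fell, with member differences from 0.00 to 1.11 (median 0.50). C1ql2, a synaptic organiser of the mossy fibres, stood at 51.4, 43.6 and 65.4 CPM in C and 68.4, 91.7 and 109 CPM in SS (0.75 ± 0.18, adjusted p = 0.0282). Npnt, a matrix protein, stood at 21.6, 16.9 and 20.5 CPM and 26.6, 31.9 and 30.7 CPM (0.60 ± 0.13, adjusted p = 0.0244). The transcription factors Glis3, at 8.23, 6.78 and 7.99 CPM and 9.2, 20.1 and 20.0 CPM (1.11 ± 0.26, adjusted p = 0.0269), and Rfx3 (0.59 ± 0.15, adjusted p = 0.0344) were the others. In the 4 genes SS mouse 18 was above the controls but below SS mice 19 and 21. Prox1, the factor that specifies granule cells, stood at 30.8, 28 and 32 CPM and 40.5, 48.4 and 50.2 CPM and did not pass (0.62 ± 0.19, adjusted p = 0.0524). The list summed to 846, 760 and 942 CPM in C and to 926, 1163 and 1256 CPM in SS. Its median was 0.29 for SS mouse 18 alone, 0.55 without it, where 9 members were called, and 0.35 after the correction. The share of dentate gyrus in each dissection was not measured, so more granule cells and more RNA per cell cannot be told apart. Immature neuron markers had 0 of 12 called.

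Markers of other hippocampal neurons gave few calls. Of 15 CA1 and subiculum markers 1 fell (median −0.26), Pou3f1, a transcription factor of CA1 neurons, at 75.8, 70.3 and 89.5 CPM in C and 59, 66.4 and 50.7 CPM in SS (−0.42 ± 0.12, adjusted p = 0.0411), a call lost without C mouse 2. Wfs1, a marker of CA1 and subiculum, ranged from 48.9 to 148 CPM among the controls and did not pass (−0.80 ± 0.32, adjusted p = 0.121). Of 17 CA2 and CA3 markers 1 fell, the RNA-binding protein Elavl4 (−0.60 ± 0.16, adjusted p = 0.0356; corrected, −0.36). Of 25 interneuron markers 1 fell, the calcium buffer Pvalb given above, and the peptide Sst stood at 179, 190.0 and 196 CPM and 146, 228 and 226 CPM (0.08 ± 0.18, adjusted p = 0.803). The CA1 list was at a median of −0.73 for SS mouse 18 alone and −0.28 without it.

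A small group of genes with large falls differed widely among the controls. Cbln1 and Cbln4, secreted proteins that join the presynaptic to the postsynaptic side, stood at 13, 23.3 and 5.33 CPM and 20.3, 31 and 9.79 CPM in C, highest in C mouse 8 and lowest in C mouse 12. In SS they stood at 2.63, 4.47 and 5.43 CPM and 11.4, 6.74 and 6.54 CPM, with differences of −1.72 ± 0.46 (adjusted p = 0.0362) and −1.32 ± 0.32 (adjusted p = 0.0289). The groups overlapped for both. Cplx3, a complexin of the release machinery, stood at 11.4, 24.6 and 13.9 CPM and 4.04, 4.78 and 6.54 CPM (−1.70 ± 0.38, adjusted p = 0.0248), and Unc13c, a priming factor, at 68.3, 107 and 40.2 CPM and 28.6, 35.1 and 33.4 CPM (−1.15 ± 0.28, adjusted p = 0.0292). Ctgf, a matrix-associated growth factor, stood at 14.9, 22.5 and 21 CPM and 4.45, 11.8 and 8.57 CPM (−1.22 ± 0.29, adjusted p = 0.0285). Without C mouse 8 the differences were −1.12 for Cbln1, −0.88 for Cbln4, −1.30 for Cplx3, −0.74 for Unc13c and −1.11 for Ctgf. Sema3c, a guidance molecule, was lower at 17.4, 17.9 and 16.6 CPM in SS than at 34.9, 33.6 and 26.5 CPM in C (−0.87 ± 0.14, adjusted p = 0.0223). Fgf12, which modulates sodium channels, stood at 252, 291 and 212 CPM and 156, 141 and 165 CPM (−0.71 ± 0.12, adjusted p = 0.0223). Cbln1, Cbln4 and Unc13c lost their call without C mouse 2, while Sema3c and Fgf12 kept theirs without C mouse 2 and without C mouse 12. After the correction Fgf12 was at −0.45.

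Of 18 neuropeptide genes 1 was called, Trh, the precursor of thyrotropin-releasing hormone, at 1.03, 0.856 and 0.0859 CPM in C and 1.31, 22.5 and 22.8 CPM in SS (4.55 ± 1.26, adjusted p = 0.0398). C mouse 12 had 1 count of Trh. SS mice 19 and 21 had the high values and SS mouse 18 stood near C mouse 2, and for SS mouse 18 alone the difference was 0.98 (adjusted p = 0.834). By limma-voom Trh was not called either (adjusted p = 0.277). Of 15 neurotrophin and growth factor genes 1 fell, the growth factor Igf1, at 13.2, 14.7 and 13.4 CPM and 8.7, 9.02 and 10.3 CPM (−0.56 ± 0.13, adjusted p = 0.0285). Bdnf, the neurotrophin most studied in stress, stood at 45.1, 44 and 53.8 CPM and 41.3, 38.9 and 39.9 CPM, with groups that did not overlap and a difference that did not pass (−0.25 ± 0.10, adjusted p = 0.119). None of 25 immediate early and activity genes was called by edgeR, while without SS mouse 18 it called 5 higher, and without C mouse 2 and SS mouse 18 it called 3 higher and 3 lower. Fos stood at 18.5, 19.6 and 12.1 CPM in C and 3.74, 12.8 and 17.1 CPM in SS (−0.57 ± 0.43, adjusted p = 0.418), lowest in SS mouse 18. Among 22 clock genes 2 rose (9.09%, against 5.21% of all genes). They were Per1 and Cry2, a repressor of the clock (0.32 ± 0.09, adjusted p = 0.0393, and 0.12 corrected). Per2 (0.89 ± 0.36, adjusted p = 0.128) and Per3 (0.92 ± 0.33, adjusted p = 0.0909) had positive differences that did not pass. The hour of tissue collection is not given in the sources used here, and its part in the clock genes was not tested.

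Astrocyte markers were near equal as a list, with 2 of 21 higher (9.52%, against 5.21% of all genes), 0 lower and a median of −0.02. Htra1, a secreted protease, stood at 214, 166 and 190.2 CPM in C and 290.4, 280.2 and 232 CPM in SS (0.49 ± 0.13, adjusted p = 0.032), and Fgfr3, a growth factor receptor, at 129, 112 and 97.8 CPM and 171, 152 and 132 CPM (0.42 ± 0.11, adjusted p = 0.0362; corrected for GC content and length, 0.21). Gfap, the intermediate filament of astrocytes, stood at 445, 478 and 614 CPM and 673, 376 and 296 CPM (−0.19 ± 0.24, adjusted p = 0.642), highest in SS mouse 18 and lowest in SS mouse 21. The 21 markers summed to between 15329 and 16624 CPM in C and between 15764 and 17483 CPM in SS.

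Of 20 microglia markers 3 fell and 0 rose, where 4.63% of all genes fell. Gpr34, a lysophospholipid receptor, stood at 22.2, 23.1 and 20.7 CPM in C and 14.9, 12.9 and 9.68 CPM in SS (−0.82 ± 0.20, adjusted p = 0.0283). P2ry13, a nucleotide receptor (−0.66 ± 0.18, adjusted p = 0.0382), and Tyrobp, a signalling adaptor (−0.52 ± 0.13, adjusted p = 0.0345), were the others, and in all 3 the groups did not overlap. Over the list they did not overlap with SS lower in 9 members and with SS higher in 2. That is 55.0% of members, against 26.9% of all genes. P2ry12, a nucleotide receptor of resting microglia, stood at 47.1, 54.7 and 54.7 CPM and 35.5, 39.7 and 34.8 CPM and did not pass (−0.51 ± 0.19, adjusted p = 0.0925). The whole list summed to between 766 and 792 CPM in C and between 667 and 763 CPM in SS, with a median of −0.07. Gpr34 and P2ry13 were no longer called without C mouse 2. After the correction Gpr34 was at −0.42, P2ry13 at −0.49 and Tyrobp at −0.26.

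Oligodendrocyte and myelin markers differed more within SS than between the groups, and 1 of 20 was called. Opalin, a membrane protein of mature oligodendrocytes, stood at 30.5, 24.3 and 35.6 CPM in C and 18.7, 15 and 11.3 CPM in SS (−1.01 ± 0.24, adjusted p = 0.0285), a call lost without C mouse 2. Mbp, a main protein of compact myelin, stood at 4066, 3402 and 5634 CPM and 6337, 2006 and 1951 CPM (−0.35 ± 0.39, adjusted p = 0.599). SS mouse 18 was the highest of the 6 and SS mice 19 and 21 the lowest. The list median was −0.32, with −0.98 and 16 members lower without SS mouse 18, and 0.34 with it as the only SS mouse. Oligodendrocyte precursor markers had 0 of 15 called.

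Of 22 endothelial and mural markers 3 fell (13.6%, against 4.63% of all genes). They were Itm2a of brain endothelium (−0.66 ± 0.17, adjusted p = 0.032, and −0.32 corrected) and the contractile genes Acta2 and Myl9. Acta2 stood at 8.7, 9.35 and 7.39 CPM in C and 5.36, 3.84 and 3.31 CPM in SS (−1.03 ± 0.27, adjusted p = 0.0359), and Myl9 at 11.4, 13.5 and 12.6 CPM and 5.76, 8 and 8.66 CPM (−0.74 ± 0.21, adjusted p = 0.0464). All 3 lost their call without C mouse 2, and Myl9 also without SS mouse 18 (−0.60, adjusted p = 0.0534). The list summed to between 368 and 489 CPM in C and between 343 and 404 CPM in SS. Choroid plexus and ependymal markers had 0 of 20 called, and Ttr, the transthyretin of the choroid plexus, stood at 3546, 2.78 and 20.1 CPM and 5095, 5.72 and 12.1 CPM (0.52 ± 2.11, adjusted p = 0.903).

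Interferon response genes fell where they were called, 3 of 24 (12.5%, against 4.63% of all genes), with 0 higher and a median of −0.27. Ifih1, a sensor of viral RNA, stood at 5.42, 5.5 and 4.81 CPM in C and 3.13, 2.35 and 2.63 CPM in SS (−0.96 ± 0.20, adjusted p = 0.0238). Ifit1, which blocks translation of foreign RNA, stood at 4.21, 3.21 and 3.01 CPM and 1.82, 0.863 and 1.53 CPM (−1.32 ± 0.35, adjusted p = 0.0365). Usp18, which removes the modifier ISG15 and restrains the interferon receptor, stood at 0.748, 0.999 and 1.8 CPM and 0.506, 0.157 and 0.17 CPM (adjusted p = 0.047), with 5, 2 and 2 counts in the SS libraries, too few for a fold. In all 3 the groups did not overlap. Over the list they did not overlap with SS lower in 7 members and with SS higher in 1. That is 33.3% of members, against 26.9% of all genes. Ifit1 and Usp18 lost their call without C mouse 2. An interferon-stimulated response element, searched as GAAA and GAAA with 2 bases between them on either strand, was found in 11 of 18 list members with a promoter, against 3.44% of all promoters, 3.57% of tested genes, 4.02% of those called lower and 1.95% of those called higher. The Ifit1 promoter holds 2 such matches, shown in capitals as read on its plus strand (RefSeq, GRCm38.p6, chr19:34640764-34640843), 104 and 85 bases before the start site.
Ifit1: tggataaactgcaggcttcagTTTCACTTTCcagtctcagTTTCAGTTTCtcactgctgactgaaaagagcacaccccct

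Of 18 genes of MHC class I, antigen processing and complement 1 fell, B2m, the light chain of class I molecules, at 90.7, 92.8 and 89.4 CPM in C and 68.3, 57.1 and 56.5 CPM in SS (−0.59 ± 0.13, adjusted p = 0.0244). Its difference was −0.04 after the GC content and length correction.

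Of 45 genes of histone methylation and chromatin remodelling 11 rose (24.4%, against 5.21% of all genes), 0 fell and 34 were not called (median 0.33). Setd1a, a writer of histone H3 methylation at active promoters, stood at 32.3, 32.5 and 32 CPM in C and 38.1, 66.9 and 68.3 CPM in SS (0.84 ± 0.17, adjusted p = 0.0223). Smarca4, the ATPase of the BAF remodelling complex, stood at 117, 124 and 123 CPM and 156, 164 and 169.5 CPM (0.43 ± 0.09, adjusted p = 0.0231). Chd4, the ATPase of the NuRD complex, had a difference of 0.48 ± 0.12 (adjusted p = 0.0285), and Kmt2b, another histone methylase, of 0.96 ± 0.23 (adjusted p = 0.0285). SS mouse 18 was above the controls in the 4 genes, by less than SS mice 19 and 21. The list median was 0.05 for SS mouse 18 alone, 0.41 without it, where 29 members rose, and 0.08 after the GC content and length correction. The median transcript length was 7261 bases, and the corrected differences were 0.52 for Setd1a, 0.13 for Smarca4, 0.22 for Chd4 and 0.48 for Kmt2b. Histone variants, which have short transcripts, had 2 of 12 lower (16.7%, against 4.63% of all genes). They were H2afz (−0.50 ± 0.08, adjusted p = 0.0223, and −0.21 corrected) and H3f3a (−0.36 ± 0.09, adjusted p = 0.0333, and −0.18 corrected).

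Of 32 members of the Mediator complex, which links transcription factors to RNA polymerase, 4 rose (12.5%, against 5.21% of all genes) and 2 fell (6.25%, against 4.63%). Med12, of its kinase module, stood at 13.4, 11.6 and 11.2 CPM in C and 20.3, 48.1 and 46.1 CPM in SS (1.67 ± 0.28, adjusted p = 0.0223), and Med24, of the tail, at 67.6, 56.3 and 60.8 CPM and 77.3, 113 and 102 CPM (0.66 ± 0.13, adjusted p = 0.0223). The small subunits Med21 (−0.73 ± 0.14, adjusted p = 0.0223) and Med6 (−0.66 ± 0.14, adjusted p = 0.0244) fell, and after the correction their differences were −0.16 and −0.20 while that of Med12 was 1.40. Of 44 splicing factors 4 rose and 4 fell (9.09% each, against 5.21% and 4.63% of all genes). Srrm2, a scaffold of nuclear speckles, stood at 194, 165 and 152 CPM and 186, 602 and 574 CPM (1.41 ± 0.30, adjusted p = 0.0239), with SS mouse 18 within the control range, and Hnrnpa1, a repressor of exons, at 210.3, 201 and 198 CPM and 131, 147 and 157 CPM (−0.48 ± 0.10, adjusted p = 0.0229; corrected, −0.23).

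Of 9 nuclear-retained noncoding RNAs 6 were called higher (66.7%, against 5.21% of all genes), with a median of 1.79, and for none were the groups apart. Malat1, a long RNA of nuclear speckles (chromosome 19, 5795690 to 5802672), stood at 506, 263 and 489 CPM in C and 505, 3761 and 5257 CPM in SS (2.92 ± 0.59, adjusted p = 0.0223). Miat stood at 60.8, 41.5 and 49.6 CPM and 42.4, 659 and 609 CPM (3.11 ± 0.65, adjusted p = 0.0229), and Meg3, an imprinted RNA, at 442, 339 and 323 CPM and 239.5, 3657 and 3712 CPM (2.79 ± 0.65, adjusted p = 0.0268). SS mouse 18 was inside the control range for Malat1 and Miat and below it for Meg3. For SS mouse 18 alone the list median was −0.48. Of 23 collagens and laminins 7 rose (30.4%, against 5.21% of all genes), with a median of 0.69. Groups did not overlap with SS higher in 5 members and with SS lower in 1. That is 26.1% of members, near the 26.9% of all genes. The list summed to 233, 159 and 180 CPM in C and to 241, 469 and 490 CPM in SS. Among the called members were Col6a1, at 6.83, 5.28 and 5.67 CPM and 2.83, 70.1 and 61.9 CPM (2.93 ± 0.71, adjusted p = 0.0285), and Col4a2 of basement membranes, at 19, 16.1 and 16.6 CPM and 16.5, 69.6 and 75 CPM (1.65 ± 0.38, adjusted p = 0.0266). For both genes SS mouse 18 was within or below the control range, and limma-voom called neither. For SS mouse 18 alone the median was −0.07, and it was 0.49 after the correction. The fibroblast and meningeal markers, which include the defining collagens Col1a1 and Col3a1, had 0 of 14 called. They summed to between 519 and 822 CPM in C and between 489 and 906 CPM in SS.

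Apart from these, several of the genes with the smallest p kept their call without C mouse 12. They were picked among called genes whose groups did not overlap, so by that choice all 3 SS mice were above all controls. Tyk2, a kinase of interferon and cytokine receptors, stood at 10.0, 8.78 and 10.2 CPM in C and 15.9, 19.2 and 19.4 CPM in SS (0.91 ± 0.14, adjusted p = 0.0223). Slit1, a repellent of growing axons, stood at 84.2, 56.7 and 75.2 CPM and 111, 184 and 161 CPM (1.08 ± 0.18, adjusted p = 0.0223). Among 41 axon guidance genes 5 were higher, Slit1 included (12.2%, against 5.21% of all genes), and 2 lower (4.88%, against 4.63%). Icam5, an adhesion molecule of forebrain dendrites, stood at 215, 166 and 198 CPM and 263, 358 and 315 CPM (0.69 ± 0.12, adjusted p = 0.0223), and Akap13, an anchor of protein kinase A, at 32.8, 24.8 and 36.2 CPM and 45.7, 78.9 and 80.2 CPM (1.13 ± 0.19, adjusted p = 0.0223). For these 4 genes SS mouse 18 was the lowest of the SS mice. For that animal alone the differences were 0.71 for Tyk2, 0.62 for Slit1, 0.44 for Icam5 and 0.55 for Akap13, and after the correction 0.66, 0.77, 0.46 and 0.73.

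Among the genes with the smallest p, picked from called genes whose groups did not overlap, others belonged to none of the lists. Ascc2, of a helicase complex that acts on damaged DNA and stalled ribosomes, stood at 5.99, 5.85 and 6.87 CPM in C and 10.3, 14.3 and 13.2 CPM in SS (1.02 ± 0.16, adjusted p = 0.0223). Cc2d1a, a repressor of the serotonin 1A receptor gene, stood at 31.8, 36.8 and 36.5 CPM and 46.4, 58.5 and 61.4 CPM (0.66 ± 0.11, adjusted p = 0.0223). By that choice both were higher in every SS mouse than in every control. Sec11c, of the signal peptidase, fell (−0.69 ± 0.11, adjusted p = 0.0223), as did Mat2b, a regulatory subunit of the enzyme that makes the methyl donor S-adenosylmethionine (−0.52 ± 0.09, adjusted p = 0.0223). Corrected, they were 0.92 for Ascc2, 0.42 for Cc2d1a, −0.36 for Sec11c and −0.34 for Mat2b. By the same choice the groups did not overlap for either lower gene, with SS mice at 92.4, 81.4 and 86.6 CPM for Mat2b and controls at 122, 131 and 120.2 CPM.

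Across the pathway and cell type lists, the SS libraries shared a direction in some and split in others. The respiratory complexes, both ribosomal subunits, the mitochondrial ribosome and the proteasome were below the control mean in all 3 SS mice, by the median of their members. C mouse 2 was also below it in each of these lists, at −0.20 for the small ribosomal subunit, where SS mouse 18 was at −0.30. After the GC content and length correction the list medians were smaller, −0.10 for complex IV and −0.19 for the small subunit. Dentate granule cell markers were above the control mean in SS mice 18, 19 and 21 (0.29, 0.48 and 0.63) and also in C mice 2 (0.06) and 12 (0.17). Glutamate receptors, myelin markers, collagens and oxidative stress genes had medians on one side of it in SS mouse 18 and on the other in SS mice 19 and 21. What part the nuclear RNA, choroid plexus and myelin content of the libraries had in any list was not tested beyond the values given beside it.

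**Figure D4:**
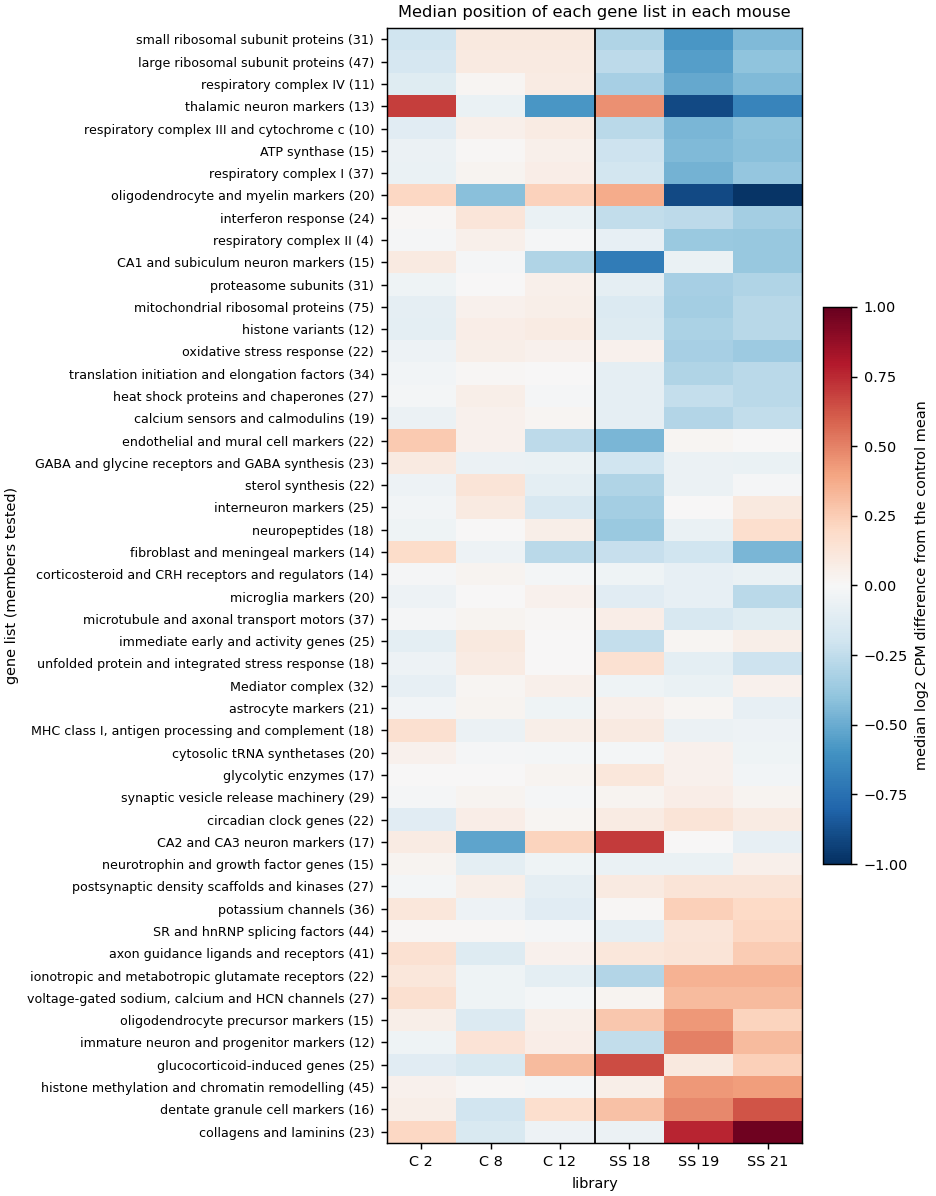
Median log2 CPM difference from the control mean (colour, red higher and blue lower) of the members of the gene lists (rows, with the number of members tested) in each library (columns). The choroid plexus and ependymal, nuclear-retained noncoding RNA and blood cell lists are not drawn. The ribosomal and respiratory lists are blue in all 3 SS mice, while the myelin list is red in SS mouse 18 (0.37) and blue in SS mouse 19 (−0.90). The ribosomal and respiratory lists are also below the control mean in C mouse 2.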

How the data were processed

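RNA of the ventral hippocampus was extracted with Trizol and sequenced from strand-marking libraries, per the labels' protocols. The authors deposited estimated counts per RefSeq transcript, given as whole numbers for 33299 transcripts in each library. TopHat and the build mm10 are named, per the submitters' processing notes. No source used here gives the counting program, how it treated strand or the annotation release. Here counts were summed over transcripts to 23183 gene symbols. Genes passing edgeR's filterByExpr (minimum count 10; 14541 genes) were scaled by TMM (factors 0.97 to 1.039) and fitted over all 12 libraries by group with edgeR 4.0.16 (R 4.3.3; 8 residual degrees of freedom, biological coefficient of variation 15.7%). The SS to C contrast used the quasi-likelihood test with Benjamini-Hochberg adjustment and a threshold of 0.05. Library totals over the series ran from 9323607 to 15707516 counts, and 3 counts is the limit that a count of 0 allows, for counting error only.

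The members and the 53 gene lists were chosen with earlier results of these data known. Genes were named by rule, being the 15 with the smallest p in each direction among called genes whose groups did not overlap, the 10 called genes with the largest rise and fall at a mean of 5 CPM or more, called list members and the 6 with the smallest p in a list, and 16 fixed genes; the values shown are a selection from these. Alternatives were DESeq2 1.42.0, limma 3.58.1 (voom), other scalings and filters, libraries left out, Malat1 or choroid plexus level as a covariate, a smooth correction for GC content and length (mgcv 1.9.3; lengths known for 98.9% of tested genes) and transcripts as deposited. The analysis was tested on simulated data. Some genes are not reported here.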

Additional observations from a re-analysis of the deposited data

How the results depend on the processing

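The number of genes called was within 1.5 times of 1430 with both other scalings, both other filters, limma-voom and the choroid plexus covariate. It was 2219 with the DESeq2 Wald test, 3644 without C mouse 2 and SS mouse 18, 2 for transcripts as deposited, and 0 in the fit of C and SS alone, with the Malat1 covariate, with the GC content and length correction, and, an alternative chosen after seeing the data, for SS mouse 18 alone against the controls. By an unadjusted p under 0.05 these last 4 edgeR fits gave 3339, 1541, 2589 and 2157 genes. Leaving out 1 library gave 0 to 3797 calls. The cause was not tested. Over left-out libraries the difference changed sign for Nr3c2 (−0.06 to 0.25), Sgk1 (−0.08 to 0.81), Crhr1 (−0.27 to 0.21), Sst (−0.02 to 0.26), Gfap (−0.62 to 0.03) and Ttr (−7.08 to 7.23). Without C mouse 2 and SS mouse 18 it was −0.19 for Sgk1 and −0.34 for Ttr. For SS mouse 18 alone and under the Malat1 covariate, the differences were −0.38 and −0.33 for Sst, 0.39 and 0.33 for Gfap, 0.53 and 0.46 for Mbp, −0.62 and −0.63 for Meg3, −0.26 and −0.25 for Miat, −1.06 and −0.81 for Col6a1 and −0.07 and −0.03 for Col4a2. Ifih1 was at 0.12 for its transcripts as deposited. No paired analysis was possible because the C and SS mice share no mouse number.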
